A study of Mus musculus with 20 samples.

Results

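Chemokine receptors are the receptors through which leukocytes read chemokine gradients, and 9 of their genes were followed here in whole knee joints: Ccr1, Ccr2, Ccr7, Cxcr2, Cxcr3, Cxcr4, Cxcr5, Cx3cr1 and Ackr3. They were taken by gene symbol from a table of 14793 genes, in which all 9 were present. Ccr1 was selected on its counts in these joints, which were higher after cell treatment than in controls, so its comparisons with control are given as a description and without a test. The other 8 were named as further receptors of the family, and 14 more receptor genes of the table were used for comparison. These genes were also chosen with earlier results of these data known, so their tests and counts are not free of that choice.

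Bulk RNA sequencing was performed on the right knees of 20 male C57BL/6Nci mice that were 12 weeks old at the start, with 5 joints per group. Every mouse, controls included, had undergone destabilization of the medial meniscus (DMM), a surgical model of osteoarthritis, so no group shows an unoperated joint. Control joints received needle insertion alone, without cells or vehicle. In the other groups mesenchymal stromal cells grown from fat (MSC) were injected into the joint in weeks 3 and 5, with 250000 cells each time. The cells were left non-activated (MSC group) or had been activated for 2 h at 10 µg/mL, either with polyinosinic-polycytidylic acid, which engages Toll-like receptor 3 (TLR3-MSC group), or with 2′,3′-cGAMP, which engages STING (STING-MSC group). All cells came from pooled adipose tissue of mice of the same strain, so they represent a single donor pool. Collection is placed 8 weeks after surgery in the methods, while another passage of the study places it within a day of injection, and the sources do not settle which applies.

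Chemokines are small secreted proteins held on matrix and vessel walls, and their receptors are G protein-coupled receptors on the surface of migrating cells. Receptors that act through Gi proteins, such as CCR1 and CXCR2, start adhesion and directed migration, whereas atypical receptors such as ACKR3 bind chemokines without activating G proteins and lower their local concentration. In joints and the adjoining marrow, CXCR2 and CXCR4 are best known for the release and the retention of neutrophils, CCR2 for the recruitment of inflammatory monocytes, and CCR7, CXCR5 and CXCR3 for the positioning of lymphocytes and dendritic cells. CCR1 is carried by neutrophils, monocytes and osteoclast precursors.

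The libraries held 27955496 to 52529972 reads, with group medians of 33230113 in control, 42283681 in MSC, 33141873 in TLR3-MSC and 31917015 in STING-MSC joints. All values are normalized counts, that is reads divided by a size factor per joint. The tissue was the whole joint with the adjoining bone, and markers of cartilage, fibroblasts, osteoblasts, osteoclasts, muscle, red cells and marrow neutrophils were all detected in each joint. MSC replicate 5 listed 296 genes at 0, against 0 to 97 in the other joints. Keratin genes of the epidermis were high in TLR3-MSC replicate 4 and control replicate 1, where the summed normalized count of the 7 epidermis markers was 23036 and 7255, against group medians of 115 to 200. Because the tissue is bulk, fewer cells of a type and less RNA per cell cannot be told apart in any of the values below.

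Of the 9 genes, 4 lie on chromosome 9 of GRCm39. Ccr1 (ENSMUSG00000025804) spans 123762161 to 123768730 on the minus strand and Ccr2 (ENSMUSG00000049103) spans 123901987 to 123913595 on the plus strand of the same receptor cluster. Cxcr2 (ENSMUSG00000026180) spans 74193148 to 74200406 and Ackr3 (ENSMUSG00000044337) 90131702 to 90144474 on the plus strand of chromosome 1, with Cxcr4 (ENSMUSG00000045382) at 128515936 to 128520031 on its minus strand. The remaining genes are on minus strands, with Ccr7 (ENSMUSG00000037944) at 99035022 to 99045904 of chromosome 11, Cxcr3 (ENSMUSG00000050232) at 100775141 to 100777876 of chromosome X, Cxcr5 (ENSMUSG00000047880) at 44423084 to 44473175 and Cx3cr1 (ENSMUSG00000052336) at 119730682 to 119898946 of chromosome 9.

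Some of these positions limit what a count can be credited to. Exons of Cxcr5 overlap those of Bcl9l on the opposite strand, and exons of Ccr7 overlap a non-coding gene, Gm57398, on the opposite strand. The deposited span of Cx3cr1 starts well before its start in the GENCODE annotation (119877749) and covers Wdr48, Gorasp1, Ttc21a and Csrnp1. For Ccr1, the longest stretch of exon sequence shared with another chemokine receptor was 47 bases, with Ccr3, which is shorter than a read of 150 bases, so whole reads of Ccr1 are separable from those of the other receptors.

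Promoter sequences of Ccr1 and Cxcr2 are shown because these are the receptors whose counts moved most alike across the joints. They run from 250 bases before to 50 bases after the start site, 5′ to 3′ on the gene's strand, from RefSeq on GRCm38.p6, at chr9:123968643-123968942 (minus strand) and chr1:74153744-74154043 (plus strand). Capitals mark GAGGAA, the core bound by the myeloid factor PU.1, or its complement.
Ccr1: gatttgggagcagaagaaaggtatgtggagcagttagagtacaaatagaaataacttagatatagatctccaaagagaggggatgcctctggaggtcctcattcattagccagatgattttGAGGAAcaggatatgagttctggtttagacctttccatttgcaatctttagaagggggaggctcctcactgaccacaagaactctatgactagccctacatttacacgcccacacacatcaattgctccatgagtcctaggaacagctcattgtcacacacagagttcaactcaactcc
Cxcr2: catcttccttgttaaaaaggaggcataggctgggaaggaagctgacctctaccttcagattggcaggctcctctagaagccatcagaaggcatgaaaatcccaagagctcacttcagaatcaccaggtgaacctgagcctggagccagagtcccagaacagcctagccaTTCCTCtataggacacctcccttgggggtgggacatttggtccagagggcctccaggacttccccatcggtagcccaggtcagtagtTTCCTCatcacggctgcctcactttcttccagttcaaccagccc

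The match in the Ccr1 promoter lies at bases −129 to −124 from the start site, and those in the Cxcr2 promoter at −81 to −76 and at 7 to 12. On either strand GAGGAA occurs in 28.3% of 32851 mouse promoters of this length, so these matches are a description and not a site. Searched on both strands, TTGCNNAA (a C/EBP motif), TGANTCA (AP-1), the interferon response core and TATAAA were held by 10.8%, 7.81%, 3.44% and 13.6% of the promoters and were not found in these windows.

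Per 1000 exon bases, the scale on which levels of different genes can be compared, Cxcr4 was the most abundant of the 23 receptor genes at a mean normalized count of 3645 over the 20 joints, above 98.5% of all genes. Cxcr2 followed at 1303, Ccr1 at 781 and Ccr2 at 648. Ackr3 was at 441 and Cx3cr1 at 312, with the reserve that its deposited gene model is longer than the one used for its length. The lymphocyte and dendritic cell receptors were the lowest of the 9, with Ccr7 at 103, Cxcr3 at 78.6 and Cxcr5 at 68.7 per 1000 bases.

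The order held loosely between neighbours. The per-base levels of Ccr1 ranged from 481 to 1006 and those of Ccr2 from 425 to 938, so these neighbours overlapped over most of their range, as did Cxcr3 (14.1 to 136) and Cxcr5 (26.3 to 107). Cxcr4, whose lowest joint was at 2685, lay above the highest joint of Cxcr2 at 1935. Ackr3 varied most of the 9, from 64.7 to 1010 per 1000 bases, with a coefficient of variation of 54.4% over the joints, against 22.2% for Ccr1 and 22.6% for Ccr2.

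**Figure D1:**
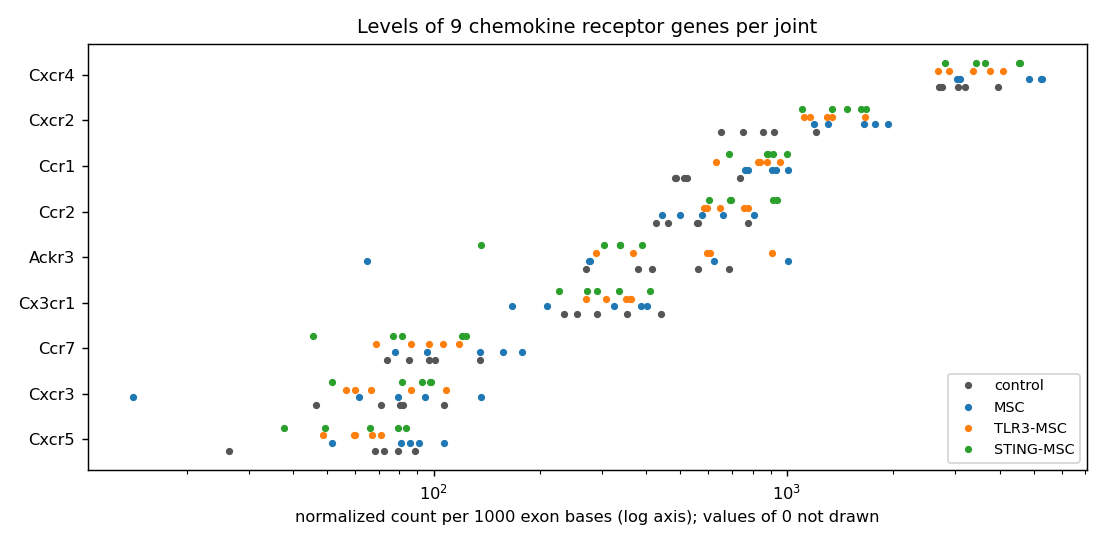
Normalized count per 1000 exon bases of the 9 chemokine receptor genes (log axis), with 1 point per joint coloured by group. Cxcr4 lies highest, at 2685 to 5276, and Ackr3 shows the widest range, from 64.7 to 1010.

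Ccr1, the receptor that led to the choice of these genes, binds CCL3, CCL5, CCL6 and CCL9. Its normalized counts were 2094, 1479, 1457, 1382 and 1365 in the control joints and 2854, 2208, 2650, 2581 and 2157 in the MSC joints. In TLR3-MSC joints they were 2495, 1785, 2350, 2723 and 2377, and in STING-MSC joints 2490, 1951, 2843, 2508 and 2601. All 5 MSC joints lay above every control joint, as in 0.737% of all genes, while TLR3-MSC replicate 2 and STING-MSC replicate 2 fell below control replicate 1.

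The group means of Ccr1 were 1555 ± 305 in control, 2489.9 ± 298 in MSC, 2346 ± 347 in TLR3-MSC and 2478 ± 327 in STING-MSC joints (SD, n = 5). These were 1.60-fold, 1.51-fold and 1.59-fold the control mean, or 0.69, 0.60 and 0.68 higher on the log2(normalized count + 1) scale (SE 0.13 each). Control replicate 1 stood apart within its group, and it also had the highest summed neutrophil and macrophage markers of the controls. By the mean log2 level of the macrophage markers, however, this joint (12.27) was below control replicates 3 (12.37) and 4 (12.40). Leaving out each joint in turn gave differences of 0.64 to 0.80 in the MSC, 0.54 to 0.71 in the TLR3-MSC and 0.63 to 0.79 in the STING-MSC comparison.

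Between the cell-treated groups the differences of Ccr1 were small. The counts of these groups entered the choice of Ccr1 through their comparison with control, so these tests are not free of it. On the log2 scale STING-MSC differed from MSC by −0.01 (95% interval −0.29 to 0.27, exact permutation test p = 0.937), TLR3-MSC from MSC by −0.09 (−0.37 to 0.19, p = 0.540) and STING-MSC from TLR3-MSC by 0.08 (−0.20 to 0.36, p = 0.524). The intervals leave room for differences of −0.37 to 0.36.

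**Figure D2:**
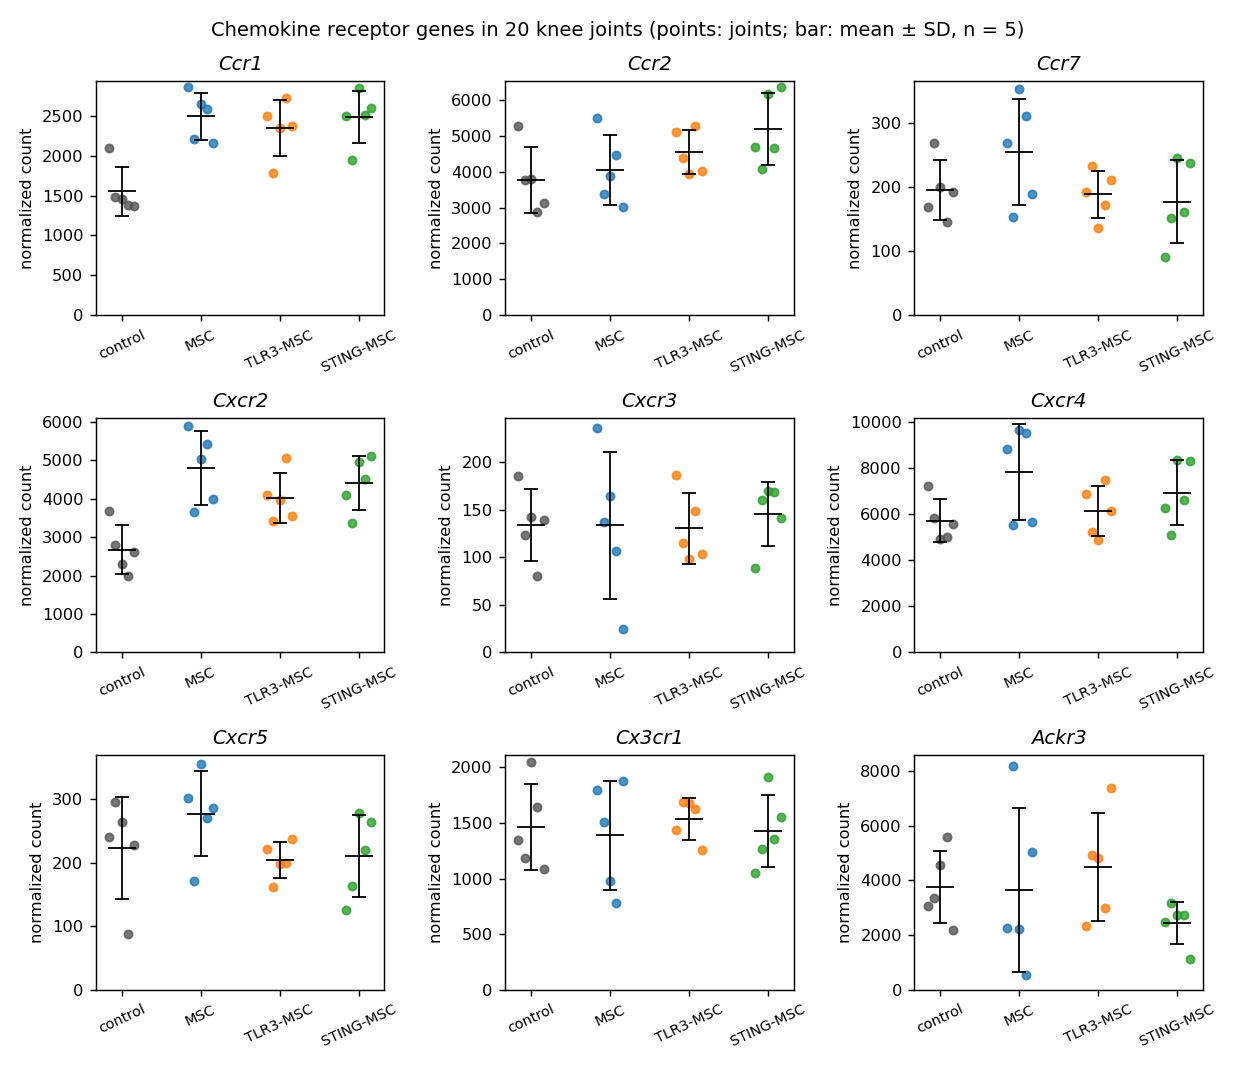
Normalized counts of the 9 receptor genes in each of 20 joints (linear axes from 0), with 1 point per joint and bars for the mean ± SD of 5 joints per group. The Ccr1 points of all MSC joints, from 2157 upwards, lie above the highest control joint at 2094, and the Ackr3 points of the MSC group spread from 524 to 8186.

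Cxcr2 encodes the receptor for CXCL1, CXCL2 and CXCL5 that guides neutrophils out of the marrow and into tissue. Its normalized counts were 3683, 2796, 2293, 1982 and 2612 in control joints and 5894, 3642, 5023, 5412 and 3988 in MSC joints. In TLR3-MSC joints they were 4097, 3405, 3964, 5053 and 3546, and in STING-MSC joints 4100, 3358, 4955, 4503 and 5101. Against the highest control joint, again replicate 1, 4 MSC, 3 TLR3-MSC and 4 STING-MSC joints were higher.

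Cxcr2 was higher by 0.85 (SE 0.17) on the log2 scale in MSC, by 0.60 in TLR3-MSC and by 0.74 in STING-MSC joints than in control. The unadjusted p from limma was 6.56e-05, 0.00184 and 0.000304, and the Benjamini-Hochberg adjusted p over all 14793 genes was 0.0647, 1.00 and 0.256, so no comparison passed the adjusted threshold of 0.05. A two-sided exact permutation test over the splits of 5 joints against 5 gave p = 0.0159, 0.0238 and 0.0159, where the smallest possible is 0.00794. The unadjusted p stayed at or under 0.05 on leaving out each of the 10 joints of a comparison in turn, with differences of 0.75 to 0.97 in the MSC, 0.50 to 0.73 in the TLR3-MSC and 0.64 to 0.86 in the STING-MSC comparison.

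Cxcr4 and Ackr3 encode the receptors of CXCL12, the chemokine that holds blood cells in the marrow. CXCR4 signals, while ACKR3 removes CXCL12. The normalized counts of Cxcr4 were 7231, 5815, 4924, 5006 and 5548 in control, 8813, 5521, 9613, 9521 and 5639 in MSC, 6857, 5229, 4892, 7461 and 6130.5 in TLR3-MSC, and 6272, 5094, 8341, 6618 and 8291 in STING-MSC joints. The MSC joints fell into 3 above every control joint and 2 within the control range. Cxcr4 was higher in MSC than in control joints by 0.43 (SE 0.18, limma, p = 0.031, Benjamini-Hochberg adjusted p = 0.52, exact permutation test p = 0.0873), and it stayed at or under an unadjusted p of 0.05 in 5 of the 10 fits that left out a joint. For TLR3-MSC and STING-MSC the differences from control were 0.10 (95% interval −0.29 to 0.48) and 0.27 (−0.11 to 0.65), and neither passed.

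The counts of Ackr3 were 3070, 3357, 4543, 5566 and 2187 in control and 2247, 8186, 2229, 524 and 5029 in MSC joints. They were 2330, 4928, 4825, 2975 and 7367 in TLR3-MSC and 2468, 3151, 2738, 2727 and 1105 in STING-MSC joints. The spread within groups was wide, up to 83% of the mean in MSC joints, and no comparison passed an unadjusted p of 0.05 in limma. The lowest p was 0.129, for STING-MSC against TLR3-MSC (log2 difference −0.85, 95% interval −1.97 to 0.27). Summed fibroblast markers ranged from 411169 to 1488850 in control and from 169701 to 1229480 in MSC joints. They ranged from 416003 to 1078710 in TLR3-MSC and from 175103 to 408108 in STING-MSC joints. Their part in the spread of Ackr3 was not tested.

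Ccr2 and Cx3cr1 are receptors of the monocyte lineage. CCR2 binds CCL2, CCL7 and CCL12 on inflammatory monocytes, and CX3CR1 binds the membrane-bound chemokine CX3CL1 on patrolling monocytes and resident macrophages. The normalized counts of Ccr2 were 5260.1, 3759.7, 3781, 2878 and 3128 in control, 5479, 3368, 3882, 4463 and 3008 in MSC, 5104, 4370, 3937, 5260.5 and 4024 in TLR3-MSC, and 4697, 4067, 6165, 4669 and 6345 in STING-MSC joints. STING-MSC replicates 3 and 5 were the highest of all joints, MSC replicate 1 also exceeded control replicate 1, and the groups overlapped.

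Ccr2 was higher in STING-MSC than in control joints by 0.47 (SE 0.18, limma, p = 0.014, Benjamini-Hochberg adjusted p = 0.339, exact permutation test p = 0.0635). It was also higher in STING-MSC than in MSC joints by 0.37 (limma, p = 0.0474, Benjamini-Hochberg adjusted p = 0.938, exact permutation test p = 0.0873). The first of these kept an unadjusted p of at most 0.05 on leaving out any of the 10 joints, with differences of 0.39 to 0.60, and the other did so in 5 of 10 fits. Against control, the differences of Ccr2 in MSC and TLR3-MSC joints were 0.10 (95% interval −0.26 to 0.47) and 0.29 (−0.07 to 0.66).

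No difference was detected for Cx3cr1. Its normalized counts ranged from 1088 to 2046 in control, 776 to 1874 in MSC, 1255 to 1685 in TLR3-MSC and 1054 to 1915 in STING-MSC joints, with medians of 1351, 1513, 1627 and 1352. The differences from control were −0.12, 0.10 and −0.03 on the log2 scale (SE 0.23 each), and no comparison passed an unadjusted p of 0.05.

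Ccr7, Cxcr5 and Cxcr3 are the receptors of the group that are carried mainly by lymphocytes and dendritic cells. CCR7 leads mature dendritic cells and naive T cells to lymph nodes, CXCR5 leads B cells to follicles, and CXCR3 is the receptor of activated T and NK cells for CXCL9 and CXCL10. The mean normalized counts of Ccr7 were 196 ± 46.4 in control, 256 ± 82.8 in MSC, 189 ± 37.2 in TLR3-MSC and 178 ± 65.04 in STING-MSC joints (SD, n = 5). Cxcr5 had means of 224 ± 80.3, 277 ± 67.3, 204 ± 28.4 and 211 ± 65.2 in the same order.

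The means of Cxcr3 were 134 ± 37.8, 134 ± 77.6, 131 ± 37.3 and 146 ± 33.7, with the lowest joint of all, at 24.4, in MSC replicate 5. None of these 3 genes passed an unadjusted p of 0.05 in any of the 6 comparisons. The lowest p was 0.0564, for Ccr7 in STING-MSC against MSC joints (log2 difference −0.54, 95% interval −1.10 to 0.02). Without MSC replicate 5 the log2 difference of Cxcr3 between MSC and control turned from −0.27 to 0.25, so that joint set its direction.

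The counts of receptors past the threshold were set against those of all genes. This is a description, since the receptors were chosen with earlier results of these data known. Of the 8 receptors other than Ccr1, 2 were higher in MSC than in control joints at an unadjusted p of at most 0.05 (Cxcr2 and Cxcr4), where 5.64% of all genes were higher and 2.91% lower. In TLR3-MSC joints 1 was higher (Cxcr2), with 2.68% of all genes higher and 0.906% lower, and in STING-MSC joints 2 were higher (Cxcr2 and Ccr2), with 6.54% higher and 5.69% lower. None of the 8 was lower than control at that threshold. The median log2 differences of the 8 were 0.23, 0.10 and 0.05, beside −0.04, −0.01 and 0.01 over all genes.

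At an adjusted p of at most 0.05 in limma, 0 of the 8 were called in each comparison with control, and over all genes 0.00676% were called in the MSC, 0% in the TLR3-MSC and 0% in the STING-MSC comparison. On recovered whole reads edgeR called 0 of the 8 in each, beside 0.101%, 0% and 0% of all genes. DESeq2 called 1, Cxcr2, for MSC and for STING-MSC and 0 for TLR3-MSC, and over all genes it called 0.712% (MSC), 0.0203% (TLR3-MSC) and 0.576% (STING-MSC). These 3 comparisons share the same control joints, so they are not independent of one another.

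Between the cell-treated groups all 9 genes were counted, although the tests of Ccr1 there are not free of its choice. For STING-MSC against MSC 1 of 9 was higher (Ccr2) and 0 were lower at an unadjusted p of at most 0.05, beside 2.77% and 2.17% of all genes. For TLR3-MSC against MSC it was 0 of 9, beside 1.89% higher and 1.99% lower, and for STING-MSC against TLR3-MSC 0 of 9, beside 0.784% and 1.78%. The adjusted p called 0 of 9 and 0% of all genes in each of these comparisons by limma. None of the 9 was called on recovered reads either, where over all genes edgeR called 0% for STING-MSC against MSC, 0.00676% for TLR3-MSC against MSC and 0% for STING-MSC against TLR3-MSC, and DESeq2 called 0.197%, 0.0474% and 0.0136%.

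**Figure D3:**
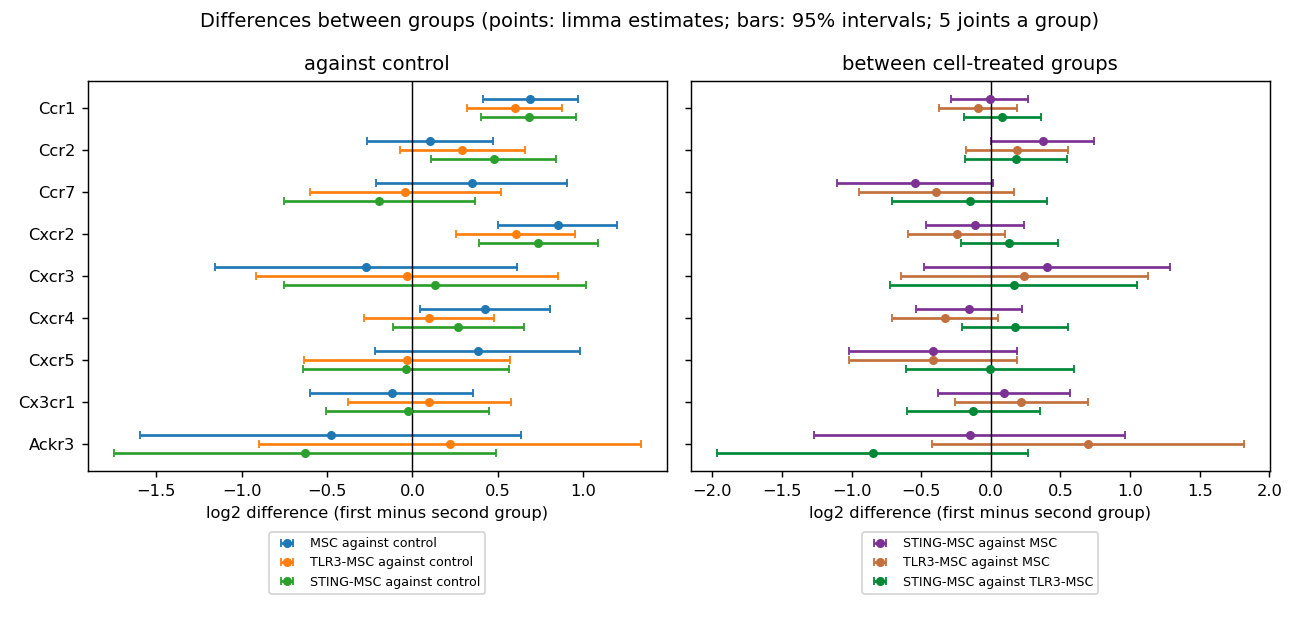
Log2 differences of the 9 receptor genes against control (left) and between the cell-treated groups (right), as limma estimates with 95% intervals from 5 joints per group. For Ccr1 the intervals against control are a description and not a test. Ccr1, chosen for its values against control, and Cxcr2 lie above 0 in all 3 comparisons with control, at 0.60 to 0.69 and 0.60 to 0.85, while the intervals of Ackr3 are the widest.

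Among the 14 other chemokine receptor genes of the table, 3 passed an unadjusted p of 0.05 in any comparison, all of them higher than in control. By comparison, 1 of the 14 was higher in MSC, 2 in TLR3-MSC and 3 in STING-MSC joints, where 5.64%, 2.68% and 6.54% of all genes were. Cxcr1, the close relative of Cxcr2 on neutrophils, had normalized counts of only 24.3, 9.67, 7.54, 16.4 and 2.04 in control joints. In the cell-treated joints it reached 25.4 to 59.7 (MSC), 21.4 to 35.0 (TLR3-MSC) and 15.9 to 72.0 (STING-MSC). All 5 MSC joints lay above every control joint, as in 0.737% of all genes. The log2 differences were 1.91, 1.51 and 1.60, with exact permutation p values of 0.00794, 0.0159 and 0.0556 and Benjamini-Hochberg adjusted p values from limma of 0.185, 1.00 and 0.291.

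Ccr10, a receptor of lymphocytes that home to skin and mucosa, was higher in TLR3-MSC (0.95, unadjusted limma p of 0.0334) and STING-MSC joints (1.01, unadjusted limma p of 0.0238), at group means of 31.8 and 34.6 against 18.9 in control. The exact permutation test gave p = 0.0873 for both, and leaving out a joint lost the limma call in 5 and 4 of 10 fits. Ccr9, which leads T cells to the gut, was higher in STING-MSC joints (0.70, unadjusted limma p of 0.0405), at 214 ± 95.1 against 131 ± 53.0 (SD, n = 5), with an exact permutation p of 0.135 and the limma call lost in 6 of 10 fits. Ccr3, a neighbour of Ccr1 in its chromosomal cluster, did not pass in any comparison, with log2 differences from control of −0.27, −0.17 and 0.10.

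Of the chemokine ligands of the 9 receptors, 18 of 21 were in the table, and 3, 2 and 3 of them were higher than in control in MSC, TLR3-MSC and STING-MSC joints at an unadjusted limma p of at most 0.05, with 0 lower at that threshold. Of all genes 5.64%, 2.68% and 6.54% were higher by the same rule, which also holds for the genes named as higher or lower in the lists that follow. Cxcl13, the ligand of CXCR5, was higher in all 3 groups by 1.64, 1.20 and 1.27 on the log2 scale, from a control mean of 22.7 normalized counts. Ccl6, a ligand of CCR1 made by myeloid cells, was higher in MSC (0.55) and STING-MSC joints (0.50), at 7142 ± 1187 and 6925 ± 1293 against 4927 ± 1250 (SD, n = 5). The median log2 differences of the ligands were 0.13, 0.13 and 0.31, and 10, 14 and 13 of the 18 lay above 0. With each joint left out in turn, the calls of Ccl6 held in all 10 fits of each comparison, and that of Cxcl13 in TLR3-MSC joints was lost in 2.

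Of 22 genes that carry the signal onward from chemokine receptors, 4 were higher in MSC, 2 in TLR3-MSC and 8 in STING-MSC joints (5.64%, 2.68% and 6.54% of all genes), and 1 was lower, Rgs1 in TLR3-MSC joints. Pik3r5, the regulatory subunit of the PI3-kinase that Gβγ activates, was higher in all 3 groups, by 0.28, 0.33 and 0.39. Arrb2 (β-arrestin, which ends signalling and drives internalization), Rgs2 (which shortens G protein signals) and Vav1 (an exchange factor for Rac) were higher in MSC by 0.37, 0.36 and 0.35 and in STING-MSC joints by 0.45, 0.41 and 0.44. Grk5, a kinase that desensitizes G protein-coupled receptors, was higher in TLR3-MSC than in control joints by 0.29 and lower in STING-MSC than in TLR3-MSC joints (−0.25, unadjusted limma p of 0.0233). The MSC calls were lost in 4 (Pik3r5), 5 (Arrb2), 5 (Rgs2) and 6 (Vav1) of the 10 fits that left out a joint, while the STING-MSC call of Vav1 was lost in 1 and the call of Grk5 between the treated groups in 2. In limma 0 genes of this list and of the ligand list passed the adjusted threshold.

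Receptors for other chemoattractants, of which 9 were listed and measured, had 5 members higher in MSC, 5 in TLR3-MSC and 7 in STING-MSC joints than in control, where 5.64%, 2.68% and 6.54% of all genes were. C5ar1 and C5ar2, the receptors of complement C5a, were higher in all 3 groups, C5ar1 by 0.60, 0.42 and 0.53 and C5ar2 by 0.57, 0.33 and 0.48. Fpr1 and Fpr2, which sense formylated bacterial and mitochondrial peptides, were also higher in all 3, Fpr1 by 0.79, 0.63 and 0.77 and Fpr2 by 0.59, 0.46 and 0.64. Ptafr, the receptor of platelet-activating factor, was higher in TLR3-MSC (0.28) and STING-MSC joints (0.43). In TLR3-MSC joints the calls of C5ar2, Fpr2 and Ptafr were lost in 4, 5 and 6 of the 10 fits that left out a joint, while the other calls of these 5 genes held in all 10.

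S1pr1, the receptor by which lymphocytes leave tissue along sphingosine-1-phosphate, was the exception. It was lower in STING-MSC joints than in control (−0.33, unadjusted limma p of 0.0491, lost in 7 of the 10 fits that left out a joint) and than in MSC joints (−0.44, unadjusted limma p of 0.012, kept in all 10). Its mean was 1179.7 ± 210.3 in STING-MSC, 1482 ± 244 in control and 1604 ± 329 in MSC joints (SD, n = 5). Of 8 endothelial markers, 5 (Cdh5, Egfl7, Kdr, Pecam1 and Tie1) were lower in STING-MSC than in control joints, where 5.69% of all genes were. Against MSC joints 1 (Egfl7) was lower, where 2.17% of all genes were, and the median log2 differences were −0.50 and −0.29. Against control the endothelial median was also below 0 in MSC (−0.20, 0 lower) and TLR3-MSC joints (−0.35, Kdr lower), where 2.91% and 0.906% of all genes were lower. The summed normalized counts of the endothelial markers ranged from 15734 to 21936 in control, 14775 to 21255 in MSC, 11821 to 17998 in TLR3-MSC and 12892 to 17696 in STING-MSC joints. None of these markers was at 0, and their part in the S1pr1 result was not tested. In limma 0 genes of this list passed the adjusted threshold.

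Markers of neutrophils moved with these results. At an unadjusted limma p of at most 0.05, 8 of 12 neutrophil markers were higher than in control in MSC, 2 in TLR3-MSC and 9 in STING-MSC joints, where 5.64%, 2.68% and 6.54% of all genes were. All 12 lay above 0 in each comparison, with median log2 differences of 0.53, 0.28 and 0.49, and their summed normalized counts ranged from 400256 to 715137 in control, 572360 to 974999 in MSC, 536002 to 828838 in TLR3-MSC and 571869 to 891750 in STING-MSC joints. None of the 12 was at 0 in any joint. Of 12 monocyte and macrophage markers only Ly6c2 and Lyz2 were higher, in MSC and in STING-MSC joints, and none in TLR3-MSC joints, with sums of 119475 to 160310 in control, 151660 to 213433 in MSC, 147211 to 181433 in TLR3-MSC and 140727 to 210755 in STING-MSC joints. None of the 10 B cell or 12 T and NK cell markers was higher than in control at that threshold, with median log2 differences of 0.07, −0.12 and −0.09 for the B cell and 0.13, −0.01 and 0.18 for the T and NK cell list, and 1, Ebf1, was lower, in STING-MSC joints. Of the other lists, 3 of 9 fibroblast markers (Col3a1, Lum and Pdgfrb) and 1 of 8 osteoclast markers (Ctsk) were also lower in STING-MSC joints, where 5.69% of all genes were. So were 1 of 8 osteoblast markers (Spp1) and 1 of 9 dendritic cell markers (Fscn1), while the dendritic cell marker Siglech was higher there. The dendritic cell marker Cd209a was higher in MSC joints. In TLR3-MSC joints Pi16 (fibroblasts), Plin1 (adipocytes) and Krt79 (epidermis) were higher. The part of these cells in the receptor results was not tested beyond the values that follow.

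Across the 20 joints, with group means subtracted, each receptor was related to the mean log2 level of 4 marker lists, which gave 36 relations with 100000 permutations each. For the neutrophil list, Cxcr2 had Pearson's r = 0.92 and Spearman's rho = 0.96, each with p = 1e-05, the smallest the permutations can give (adjusted p = 0.00018 and 0.00012). Cxcr4 had r = 0.91 and rho = 0.91, also with p = 1e-05 for each (adjusted p = 0.00018 and 0.00012). Ccr2 had r = 0.89 (permutation p = 5e-05, adjusted 0.00045) and rho = 0.90 (permutation p = 3e-05, adjusted 0.00027). Ccr1 had r = 0.81 (permutation p = 2e-05, adjusted 0.00024) and rho = 0.85 (permutation p = 1e-05, adjusted 0.00012). Leaving out the 2 joints farthest from the median neutrophil score gave r = 0.90 for Cxcr2, 0.93 for Cxcr4, 0.88 for Ccr2 and 0.83 for Ccr1.

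These relations were not particular to 1 list. Ccr2, Cxcr4 and Cxcr2 also passed an adjusted permutation p of 0.05 with the B cell list (r = 0.77, 0.74 and 0.71) and with the T and NK cell list (r = 0.76, 0.74 and 0.68). Ccr1 passed with the B cell list (r = 0.53), and Cxcr5, Cxcr3 and Ccr7 passed with the neutrophil list (r = 0.66, 0.58 and 0.57). Whether r differed between lists was not tested.

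Ackr3 ran the other way, with r = −0.63 (permutation p = 0.00675, adjusted 0.0149) and rho = −0.72 (permutation p = 0.00276, adjusted 0.00621) to the neutrophil list, and r = −0.61 without the 2 farthest joints. Cxcr5 and Ccr7 had their highest r with the B cell list, at 0.82 (permutation p = 0.00024, adjusted 0.00162) and 0.81 (permutation p = 0.00027, adjusted 0.00162), with rho = 0.78 (permutation p = 0.00047, adjusted 0.00211) and 0.75 (permutation p = 0.00189, adjusted 0.00543) and r = 0.75 and 0.70 without the 2 farthest joints. With the T and NK cell list their r was 0.73 and 0.71, and 0.75 for both without the 2 farthest joints, so for Ccr7 the order of the lists turned. Cxcr3 had its highest r with the T and NK cell list, at 0.74 (permutation p = 0.00138, adjusted 0.00414) with rho = 0.59 (permutation p = 0.0169, adjusted 0.0319), and r = 0.55 without the 2 farthest joints, below its r of 0.57 with the neutrophil list treated the same way. Cx3cr1 had its highest r with the monocyte and macrophage list, at 0.55 (permutation p = 0.0558, adjusted 0.0844), with rho = 0.45 (permutation p = 0.112, adjusted 0.156) and r = 0.32 without the 2 farthest joints, and no receptor passed an adjusted p of 0.05 with that list. The levels of a joint share its library and tissue composition, and with 5 joints per group no relation was computed within a group.

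**Figure D4:**
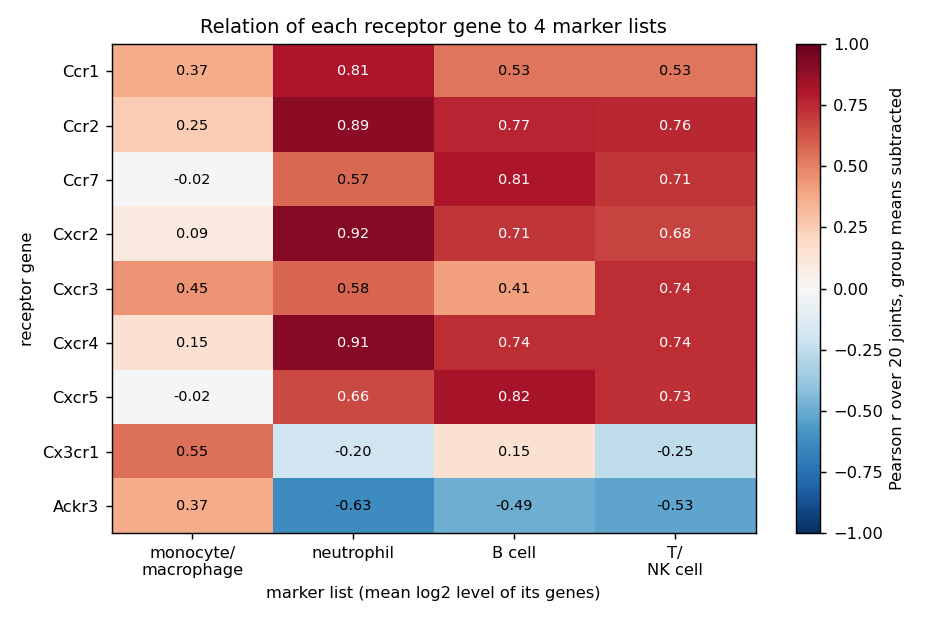
Pearson's r between each receptor gene (rows) and the mean log2 level of 4 marker lists (columns) over 20 joints with group means subtracted. The neutrophil column is highest for Cxcr2 (0.92), Cxcr4 (0.91), Ccr2 (0.89) and Ccr1 (0.81), the B cell column for Cxcr5 (0.82) and Ccr7 (0.81), and Ackr3 is negative with 3 of the 4 lists.

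Values of the receptors changed to different degrees when the neutrophil marker score, the mean log2 level of the 12 markers, was added to the fit as a covariate, which was done after the data were seen. The log2 differences of Ccr1 from control were then 0.41 in MSC, 0.45 in TLR3-MSC and 0.40 in STING-MSC joints (SE 0.10, 0.09 and 0.10), and those of Cxcr2 were 0.45, 0.39 and 0.33 (unadjusted limma p of 5.65e-05, 9.7e-05 and 0.00128, Benjamini-Hochberg adjusted p = 0.248, 0.179 and 0.527). Cxcr4, by contrast, was at −0.01 in MSC joints (95% interval −0.21 to 0.20, unadjusted limma p of 0.948). Ccr2 was at 0.06 in STING-MSC joints (−0.15 to 0.27, unadjusted limma p of 0.565) and at −0.31 in MSC joints (unadjusted limma p of 0.00687, Benjamini-Hochberg adjusted p = 0.429). Also lower than control in this fit were Cxcr3 in MSC joints (−0.92, unadjusted limma p of 0.0403) and Ccr7 in STING-MSC joints (−0.60, unadjusted limma p of 0.0383), beside 1084 and 412 of all 14793 genes in these comparisons.

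At equal neutrophil score Ccr2 was higher in STING-MSC and in TLR3-MSC than in MSC joints, by 0.36 and 0.38 (unadjusted limma p of 0.000451 and 0.000494, Benjamini-Hochberg adjusted p = 0.198 and 0.686). The same covariate left Ccr7 lower in STING-MSC than in MSC joints by a log2 difference of −0.55 (unadjusted limma p of 0.0256, Benjamini-Hochberg adjusted p = 0.56). The monocyte and macrophage score as the covariate left the differences from control at 0.66, 0.56 and 0.64 for Ccr1 and at 0.84, 0.59 and 0.72 for Cxcr2. The neutrophil score itself ranged from 13.2 to 14.1 in control, 13.8 to 14.5 in MSC, 13.7 to 14.4 in TLR3-MSC and 13.8 to 14.5 in STING-MSC joints, so the groups overlapped on it only in part.

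**Figure D5:**
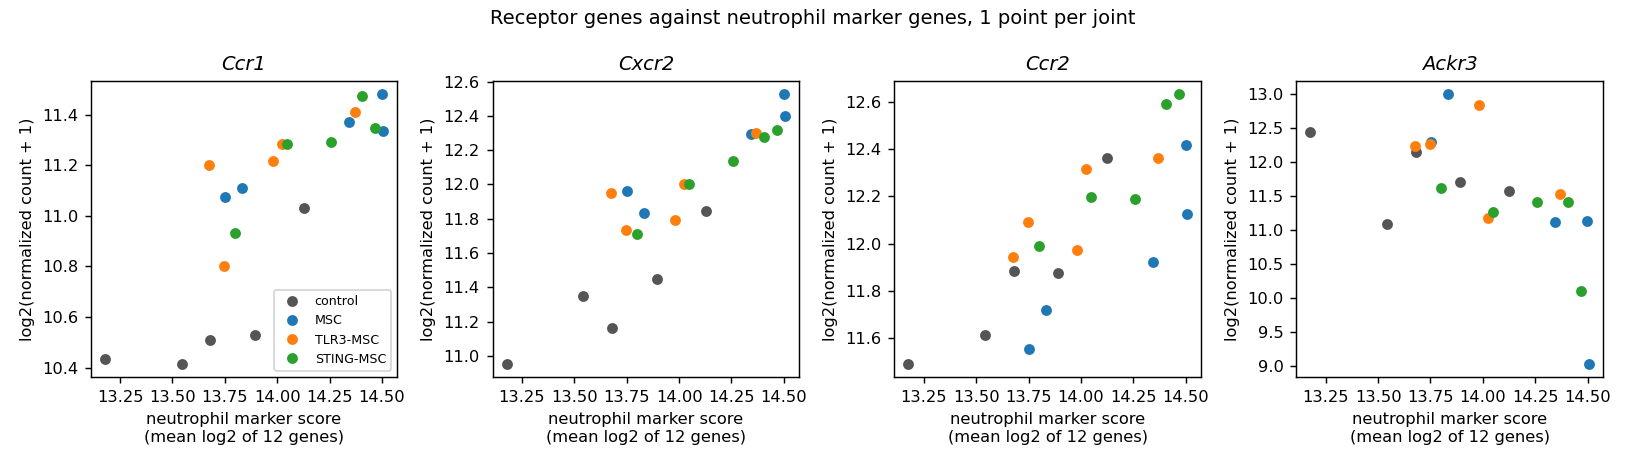
Log2(normalized count + 1) of Ccr1, Cxcr2, Ccr2 and Ackr3 against the neutrophil marker score of the same joint, with 1 point per joint coloured by group. Ccr1 and Cxcr2 rise with the score and most control points lie below treated points of similar score. Ccr2 also rises, and most MSC points lie below STING-MSC and TLR3-MSC points of similar score. Ackr3 declines (r = −0.63 with group means subtracted).

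Of all other genes, those whose log2 levels were most like Ccr1 over the 20 joints were Hp (r = 0.95), Il36g (0.95), Il6ra (0.95), Cxcr2 (0.94), Fpr1 (0.94), C5ar1 (0.93), Fcgr3 (0.93) and Nadk (0.92). Hp encodes haptoglobin, which binds free haemoglobin and is stored in neutrophil granules, Il36g an interleukin of the IL-1 family, Il6ra the IL-6 receptor subunit, Fcgr3 an activating IgG receptor and Nadk the kinase that makes NADP. With group means subtracted the r of these genes ranged from 0.85 for Il6ra to 0.91 for Hp. These r values are a description, since genes of a joint share its library and Ccr1 was chosen for its pattern across the groups.

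Among the receptors, Cxcr2 was the most like Ccr1, and Cxcr1 (r = 0.80), Cxcr4 (0.71) and Ccr2 (0.68) followed. Ccr3, its neighbour in the cluster, had r = 0.09. Ackr3 had the lowest r of the receptors, at −0.35.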

How the data were processed

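RNA from 20 knee joints was sequenced as polyA-selected TruSeq libraries. Per the labels and the study's methods, reads were aligned to GRCm39 with STAR 2.7.3a and counted with HTSeq, and DESeq2 was named. The strand setting of the counting is not given in the sources used here. The authors deposited median-ratio normalized counts, each library divided by its own size factor, a signal for 14793 genes. The values were whole multiples of 1 read (99.8% to 99.9% within 0.1 of a whole read), which gave the depths, and intervals cover counting error and the spread between joints only as far as 5 joints show it.

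limma (3.58.1, R 4.3.3) with its trend option was fitted to log2(normalized count + 1) over all joints and genes. It was also run on simulated data with 200 genes changed 4-fold. That is more than the receptor differences here, so the run does not show recovery at their size. A minimum mean of 5 removed 0 genes, and adjusted p values follow Benjamini and Hochberg. Exact permutation tests were two-sided. Count tests were run on recovered reads with DESeq2 (1.42.0), which the methods name, and edgeR (4.0.16), beside other pseudocounts (0.5 and 5), a minimum mean of 20, quantile normalization, only the 2 groups compared, a replicate block, each joint left out, and marker scores as covariates, added after seeing the data.

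All 9 receptors were named, and other listed genes by p at most 0.05 (ligands, signalling and chemoattractant genes in at least 2 comparisons, at most 6 per list), with the 8 genes most like Ccr1. Exon lengths come from GENCODE. The members and lists were chosen with earlier results of these data known. Values of 1 further receptor gene are not reported here.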

Additional observations from a re-analysis of the deposited data

Results flagged for a closer look

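In a group of 5 joints, a joint was singled out when its gap to the nearest other joint exceeded 0.71 of the group's range, which chance does in about 1 in 20 groups. Ccr1 in control replicate 1 (2094 normalized counts) was the only such value among the 9 receptors. Among other named genes these were Ccl6 in control replicate 1 (7101), Cxcl13 in TLR3-MSC replicate 3 (110), Grk5 in TLR3-MSC replicate 5 (1207), C5ar2 in TLR3-MSC replicate 4 (525), C5ar1 in STING-MSC replicate 2 (2330) and Ptafr in MSC replicate 1 (1881).

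Between cell-treated groups, 3 differences of the receptors, ligands, signalling genes and other chemoattractant receptors passed an unadjusted p of 0.05 in limma. Ccr2 was higher in STING-MSC than in MSC joints by 0.37, Grk5 differed between STING-MSC and TLR3-MSC joints by −0.25, and S1pr1 between STING-MSC and MSC joints by −0.44 on the log2 scale.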

How the results depend on the processing

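Cxcr2 kept its direction against control in every alternative run, replicate block and covariates included. With the replicate number as a block, the paired fit gave 2, 1 and 2 of the 8 receptors other than Ccr1 past an unadjusted p of 0.05 against control (MSC, TLR3-MSC and STING-MSC) and 0 past the adjusted threshold, the same receptors as without it. Among the other receptors, Ccr9, with a log2 difference of 0.70 for STING-MSC against control, no longer passed, at an unadjusted limma p of 0.063. Same-numbered joints did not all deviate together (r from −0.658 to 0.464), and the labels do not say what a shared number stands for. Against control, DESeq2 on recovered reads gave 1 receptor past the adjusted threshold (Cxcr2) in the MSC and 1 in the STING-MSC comparison, in place of 0, while over all genes it called 105 and 85 of 14754, in place of 1 and 0. For STING-MSC against MSC, the count of 1 became 0 with only the 2 groups compared, with quantile normalization, with edgeR, with DESeq2 and with the macrophage score as a covariate, and 2 (Ccr2 and Ccr7) with the neutrophil score. That score gave 1 (Ccr2) for TLR3-MSC against MSC, and only the 2 groups compared gave 1 (Ackr3) for STING-MSC against TLR3-MSC. Against control, the neutrophil score gave 3 for MSC (Cxcr2, and Ccr2 and Cxcr3 lower) and 2 for STING-MSC (Cxcr2, and Ccr7 lower). Of all 14793 genes, that fit gave 518 higher and 1084 lower for MSC and 646 and 412 for STING-MSC against control. Against MSC it gave 738 and 457 for STING-MSC and 444 and 300 for TLR3-MSC. Only the 2 groups compared gave 159 and 1099 for STING-MSC against TLR3-MSC. Both covariate fits were chosen after seeing the data. On leaving out each joint in turn, the count past an unadjusted p of 0.05 was 1 to 2 for MSC and 1 to 2 for TLR3-MSC against control, 0 to 1 for STING-MSC against MSC (Ccr2 or Ccr7) and 0 to 2 for TLR3-MSC against MSC, and the adjusted count for MSC against control was 0 to 1. Cxcr4 was lost for MSC against control without control replicate 3 or 4 or MSC replicate 1, 3 or 4, Cxcr2 gained the adjusted threshold without control replicate 1 or MSC replicate 2, and Ccr2 was gained for TLR3-MSC without control replicate 1. The count for STING-MSC against MSC was 0 without MSC replicate 3, and that for TLR3-MSC against MSC was above 0 without MSC replicate 2 (Ackr3 and Cxcr4), MSC replicate 5 or TLR3-MSC replicate 4 (Cxcr4). The cause of these changes was not tested.

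Of the log2 differences that changed sign, only those of Cxcr4, Arrb2 and Vav1 for MSC against control had passed an unadjusted p of 0.05. With the neutrophil score as a covariate, Cxcr4 became −0.0066 there, −0.14 for TLR3-MSC and −0.17 for STING-MSC against control, and −0.030 for STING-MSC against TLR3-MSC. Arrb2 and Vav1 became −0.022 and −0.037 for MSC against control. In the same fit, for MSC against control, Ccr2 became −0.31, Ccr7 −0.047, Cxcr5 −0.11 and Ackr3 0.42. For STING-MSC against control, Cxcr3 became −0.52, Cx3cr1 0.096 and Ackr3 0.28. For STING-MSC against TLR3-MSC, Ccr1 became −0.047, Ccr2 −0.010, Cxcr2 −0.055 and Cxcr3 −0.14, and for TLR3-MSC against MSC Ccr1 became 0.033. With the macrophage score, Cxcr3 became −0.027 for STING-MSC and Cx3cr1 −0.0026 for TLR3-MSC against control. edgeR gave Cxcr3 0.017 for MSC against control, and −0.0351 (DESeq2 −0.034) for TLR3-MSC against MSC. With quantile normalization Cxcr5 became 0.066 for STING-MSC against control and 0.071 against TLR3-MSC, and in the latter it was 0.022 with edgeR and 0.048 with DESeq2.

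With 1 joint left out at a time, 20 of the 54 receptor differences changed sign in at least 1 fit. For MSC against control the ranges were −0.90 to 0.091 (Ackr3), −0.015 to 0.23 (Ccr2), −0.25 to 0.068 (Cx3cr1) and −0.55 to 0.25 (Cxcr3). For TLR3-MSC against control they were −0.14 to 0.079 (Ccr7), −0.20 to 0.097 (Cxcr3) and −0.34 to 0.097 (Cxcr5). For STING-MSC against control they were −0.33 to 0.025 (Ccr7), −0.14 to 0.10 (Cx3cr1), −0.038 to 0.30 (Cxcr3) and −0.34 to 0.13 (Cxcr5). For STING-MSC against MSC they were −0.72 to 0.27 (Ackr3), −0.061 to 0.074 (Ccr1), −0.094 to 0.22 (Cx3cr1) and −0.12 to 0.69 (Cxcr3). For TLR3-MSC against MSC they were −0.15 to 0.0038 (Ccr1) and −0.28 to 0.52 (Cxcr3), and for STING-MSC against TLR3-MSC −0.013 to 0.17 (Ccr1), −0.29 to 0.068 (Ccr7) and −0.12 to 0.16 (Cxcr5). With the median in place of the mean over the macrophage list, r became −0.0011 (Ccr1), −0.14 (Ccr2), −0.18 (Cxcr2), −0.23 (Cxcr4) and 0.11 (Cxcr5), and without the 2 farthest joints the r of Cx3cr1 to the T and NK cell list became 0.0012. Depth limits the receptors with few reads most, such as Cxcr1, with normalized counts of 2.04 to 24.3 in controls.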
